A study of Mus musculus with 6 samples.

Results

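The conjugating enzymes that attach glucuronic acid, glutathione or sulfate to small molecules were compared between intestinal crypts of control mice and of mice with an activated YAP transgene. They were all genes of the UDP-glucuronosyltransferase (Ugt), cytosolic glutathione transferase (Gst), microsomal glutathione transferase (Mgst) and sulfotransferase (Sult) families that a probe set measured alone. This gave 49 of the 19938 genes on the arrays: 11 Ugt, 19 Gst, 3 Mgst and 16 Sult genes. A gene with several probe sets is given by the one whose mean over the 6 arrays was highest.

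Crypts, the pits of the gut lining that hold its stem and progenitor cells, came from 3 control and 3 YAP transgenic (YAP Tg) mice, with 1 Affymetrix array per mouse. By the series title the transgene is YAP-S127A, a form of the coactivator YAP without a serine at which the Hippo pathway inhibits it, driven by Villin-rtTA, which acts in intestinal epithelium. Mice received doxycycline, which switches such a transgene on, for 2 days before crypts were isolated. Whether controls received it, which transgenes they carried, and the age, sex and strain of any mouse are not given in the labels, so drug and transgene cannot be told apart. The epithelial markers Epcam and Vil1 were high in both groups. Epcam was 11.67 and Vil1 12.41 in control crypts on the log2 scale, against 11.85 and 12.51 in transgenic crypts. These 2 values do not show that the groups had the same cells. Of 12 general epithelial markers 6 were called higher in transgenic crypts, as were 10 of 11 measured T cell markers.

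Conjugation makes lipid-soluble compounds more soluble in water, so that transporters can remove them from the cell. Ugt enzymes sit in the membrane of the endoplasmic reticulum and use UDP-glucuronate. Gst and Mgst enzymes join glutathione to reactive, electron-poor compounds. Sult enzymes transfer sulfate from the donor PAPS (3′-phosphoadenosine 5′-phosphosulfate) to phenols, steroids and amines. The gut epithelium makes all these enzymes and thereby modifies food compounds, drugs, hormones and bile acids.

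In transgenic crypts 20 of the 49 genes fell and 0 rose at an adjusted p below 0.05 by limma's test, adjusted over all 19938 genes. Thus 40.8% of the conjugating enzymes were called lower, where 6.70% of all genes were. None was called higher, where 7.50% of all genes were. Of them, 17 were called and at least 2-fold lower, as were 2.35% of all genes, and 8 were called and at least 4-fold lower, as were 0.517% of all genes. All 3 transgenic values lay below all 3 control values for 27 of the 49 genes, against 17.0% of all genes. For 1 gene, Sult2b1, they all lay above, against 16.6% of all genes. The median log2 change, transgenic minus control throughout, was -0.45 for the 49 genes and 0.03 for all genes.

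The families differed in how many members fell. It was 5 of 11 Ugt genes (median log2 change -0.43), 11 of 19 Gst genes (-1.08), 2 of 3 Mgst genes (-1.54) and 2 of 16 Sult genes (0.03). These counts describe the families, and the difference between families was not tested. The probe sets that the array carries as controls had a median log2 signal of 4.97 on control and 5.17 on transgenic arrays, taken here as a rough floor. In both groups 12 of the 49 genes lay below it, 8 of them Sult genes, and these 12 had log2 changes between -0.07 and 0.12. None of these 12 was called.

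**Figure D1:**
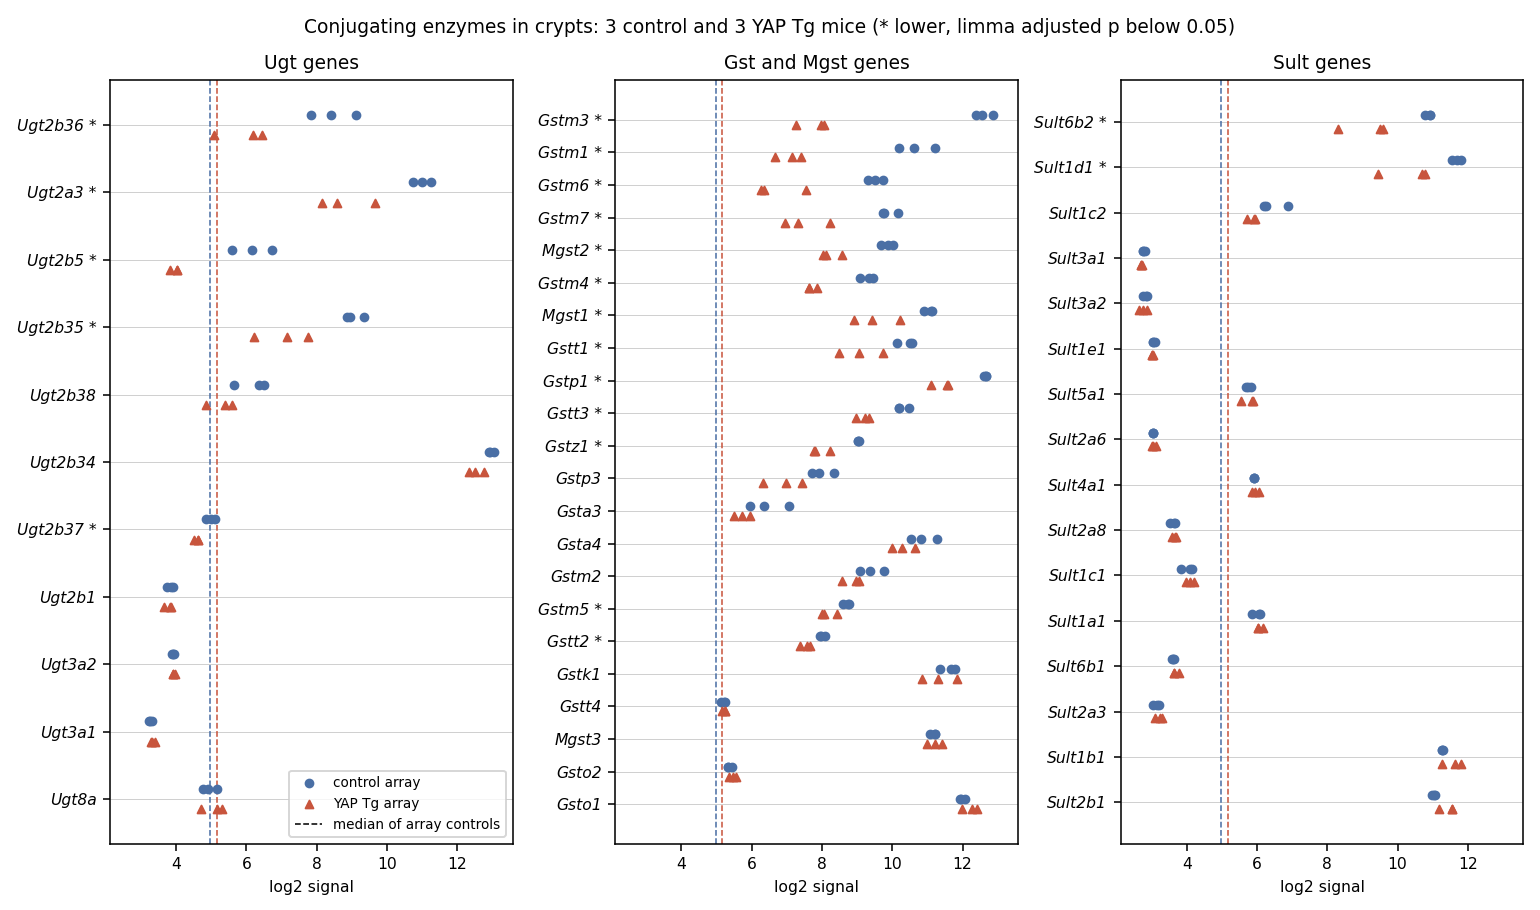
The log2 signal of each of the 49 genes (x axis) on the 3 control arrays (blue circles) and the 3 YAP Tg arrays (red triangles), by family, with genes that passed the test starred and the medians of the array controls as dashed lines. Gstm3 shows the widest gap between groups, from a control mean of 12.60 to a transgenic mean of 7.76, and 8 of the 16 Sult genes have means left of the dashed lines in both groups.

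**Figure D2:**
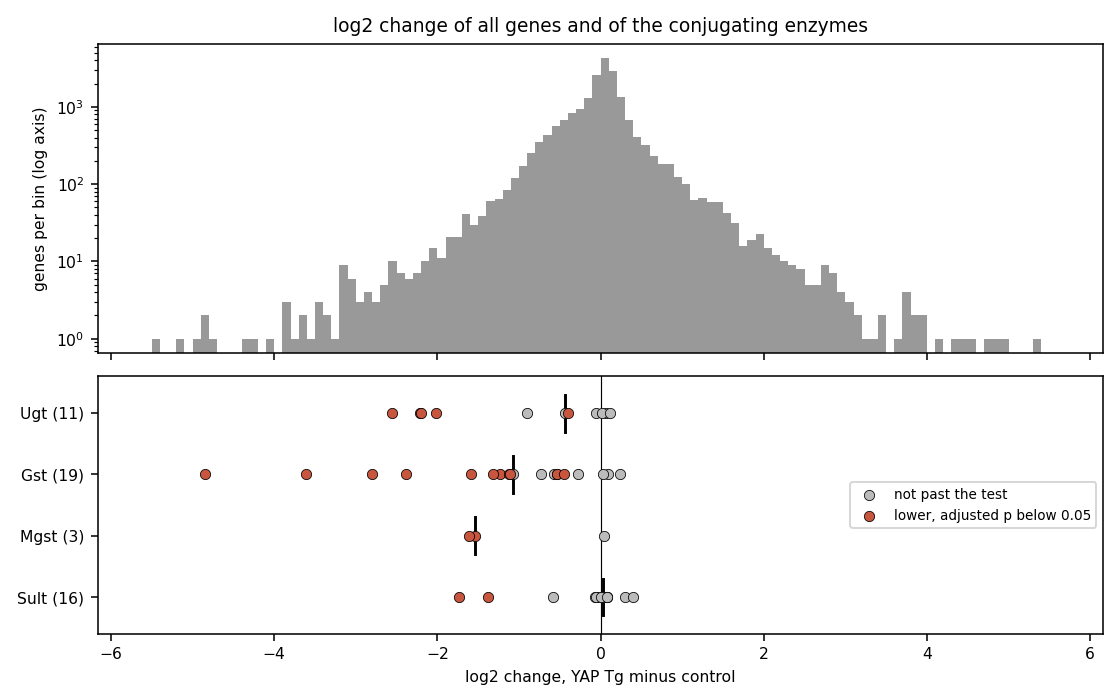
The upper panel counts all 19938 genes by log2 change on a log axis, and the lower panel places each conjugating enzyme on the same axis by family, red where it was called lower, with a black bar at the family's median. The Gst and Ugt genes extend to the left of most genes, with medians of -1.08 and -0.43, and the Sult median stands at 0.03.

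The mu class of cytosolic glutathione transferases, Gstm, fell most. Of its 7 measured genes 6 were called lower and all 7 had non-overlapping values, with a median log2 change of -2.38. Among all genes 6.70% were called lower, and 17.0% had all 3 transgenic values below all 3 control values. Since Gstm3 and Gstm1 fell most of all 49 genes, their promoters are shown to let the reader see what stands before their start sites. That of Gstm2, the neighbour between them that was not called, is shown too, a choice made after its values were seen. It replaces the planned promoters of Sult2b1 and Sult1b1, the genes with the highest log2 changes, which are not shown. The sequences are RefSeq's for the mouse assembly GRCm38.p6, from 250 bases before to 50 bases after the annotated start, all on the minus strand of chromosome 3. Gstm3 is at chr3:107969125-107969424, Gstm1 at chr3:108017924-108018223 and Gstm2 at chr3:107986371-107986670. Capitals mark matches of the TEAD motif GGAATG on either strand, TEAD being the DNA-binding partners of YAP.
Gstm3: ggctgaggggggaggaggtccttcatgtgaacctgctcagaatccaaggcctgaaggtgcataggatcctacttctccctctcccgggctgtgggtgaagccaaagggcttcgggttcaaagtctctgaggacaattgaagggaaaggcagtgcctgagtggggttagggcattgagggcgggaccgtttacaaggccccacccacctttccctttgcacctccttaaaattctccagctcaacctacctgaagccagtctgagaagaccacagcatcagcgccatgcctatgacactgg
Gstm1: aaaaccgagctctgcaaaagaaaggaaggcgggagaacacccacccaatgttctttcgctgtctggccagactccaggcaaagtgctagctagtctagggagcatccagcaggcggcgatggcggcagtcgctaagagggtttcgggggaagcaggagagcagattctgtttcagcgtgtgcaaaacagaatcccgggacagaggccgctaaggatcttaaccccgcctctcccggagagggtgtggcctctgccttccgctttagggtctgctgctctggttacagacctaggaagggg
Gstm2: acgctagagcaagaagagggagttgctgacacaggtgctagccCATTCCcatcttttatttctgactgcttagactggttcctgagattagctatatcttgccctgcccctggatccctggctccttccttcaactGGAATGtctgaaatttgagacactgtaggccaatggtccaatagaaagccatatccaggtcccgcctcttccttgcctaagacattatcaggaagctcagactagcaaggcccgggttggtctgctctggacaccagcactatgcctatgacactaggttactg
The windows of Gstm3 and Gstm1 held no match of any motif searched. That of Gstm2 held 2 TEAD matches. The TEAD motif also stood in the windows of Gstm6 and Gstm7, which were called lower. It was thus in 3 of 7 Gstm promoters, against 14.6% of all promoters. Over all families it stood in 10.5% of the promoters of genes that fell and in 26.9% of those of the other members. Whether matches go with the changes was not tested.

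Gstm3 had log2 signals of 12.86, 12.39 and 12.57 in control mice 1 to 3 and of 7.26, 8.05 and 7.97 in transgenic mice 1 to 3. It thus kept 3.48% of its control signal, a change of -4.85 on the log2 scale (SE 0.24, limma's adjusted p = 0.000482), and only 4 genes on the array had a lower value. A second probe set for Gstm3 gave the same change of -4.85. Whether both sets read the same stretch of the transcript was not tested, so they are not taken as independent. Gstm1, the most widely studied mu enzyme, read 11.23, 10.18 and 10.63 in controls and 6.68, 7.41 and 7.14 in transgenic mice. The highest transgenic value was far below the lowest control value, and the fall was 12.2-fold (log2 change -3.61, SE 0.30, limma's adjusted p = 0.00148).

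Gstm6 read 9.75, 9.30 and 9.51 in controls and 6.34, 6.27 and 7.55 in transgenic mice (log2 change -2.80, SE 0.35, limma's adjusted p = 0.00534). Gstm7 went from 10.15, 9.74 and 9.76 to 6.94, 7.33 and 8.23 (log2 change -2.38, SE 0.33, limma's adjusted p = 0.00706). In both genes transgenic mouse 3 kept the most signal. Gstm4 went from 9.45, 9.09 and 9.34 to 7.62, 7.86 and 7.63, a fall to 33.3% of control with little spread among mice (log2 change -1.59, SE 0.12, limma's adjusted p = 0.00109).

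Gstm5 changed least of the mu genes that passed the test, from 8.74, 8.77 and 8.59 to 8.01, 8.44 and 8.07 (log2 change -0.53, SE 0.13, limma's adjusted p = 0.0470). Its call was lost without any 1 control array or without transgenic mouse 1 or 3 (limma's adjusted p between 0.110 and 0.170). Gstm2 had a change of the same size, from 9.76, 9.09 and 9.36 to 8.56, 9.06 and 8.98, and did not pass (log2 change -0.54, SE 0.21, limma's adjusted p = 0.147). The mu genes are close relatives, and how far each probe set also binds transcripts of the others was not tested.

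On the chromosome the mu genes stand side by side in the order Gstm5, Gstm7, Gstm6, Gstm3, Gstm2, Gstm1 and Gstm4, as RefSeq gives it. The 2 genes on each outer side, Csf1 and Eps8l3, and Ampd2 and Gnat2, were not called, with log2 changes between -0.36 and -0.13. Large changes in Gstm3 and Gstm1 thus lay on both sides of Gstm2, which changed by -0.54.

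**Figure D3:**
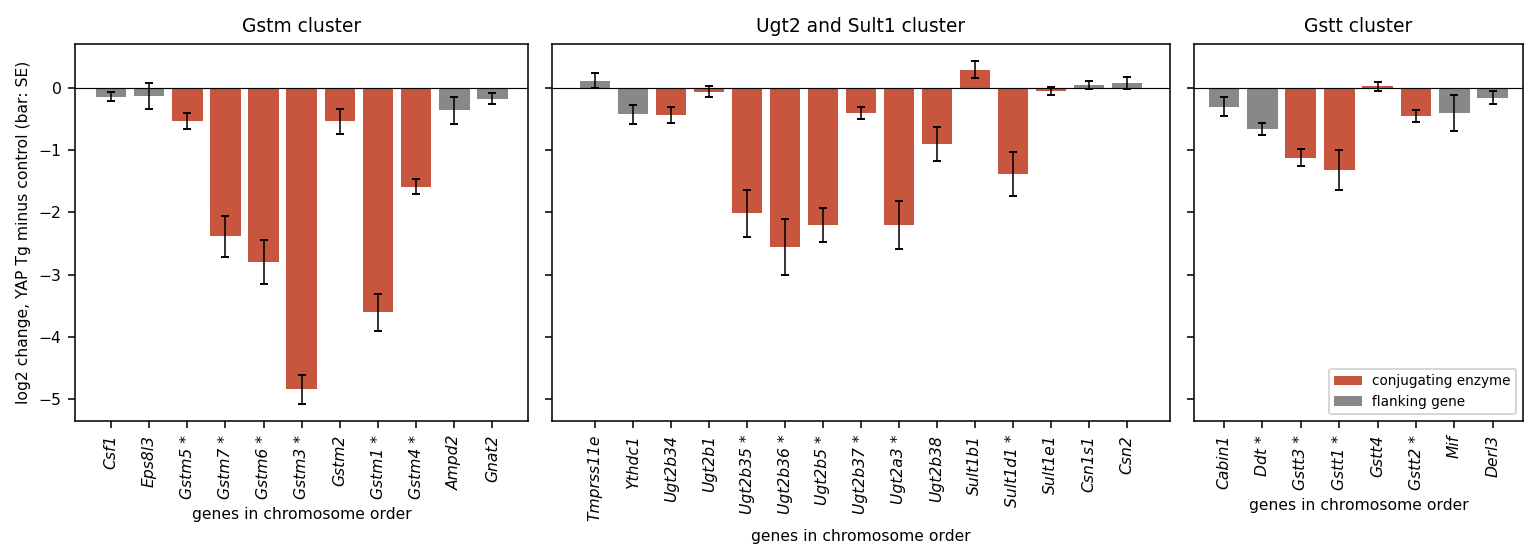
The log2 change, with its SE, of each gene in 3 chromosome clusters, drawn in chromosome order and not to distance, with conjugating enzymes in red, flanking genes in grey and called genes starred. In the Gstm cluster the bars run from -4.85 for Gstm3 to -0.53 for Gstm5, while the 4 flanking genes lie between -0.36 and -0.13.

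Other cytosolic classes fell less than Gstm3 or were not called. Gstp1, the pi class enzyme abundant in many epithelia, read 12.68, 12.67 and 12.61 in controls and 11.11, 11.57 and 11.57 in transgenic mice. It kept 42.5% of its signal (log2 change -1.24, SE 0.14, limma's adjusted p = 0.00360). Gstz1, which as maleylacetoacetate isomerase also acts in tyrosine breakdown, went from 9.03, 9.02 and 9.06 to 7.77, 8.22 and 7.79 (log2 change -1.11, SE 0.13, limma's adjusted p = 0.00442). Both genes had tight control values and no overlap.

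Of the theta class, 3 of 4 genes fell. Gstt3 went from 10.49, 10.21 and 10.18 to 8.97, 9.34 and 9.22 (log2 change -1.12, SE 0.13, limma's adjusted p = 0.00423). Gstt1 went from 10.57, 10.13 and 10.51 to 8.48, 9.05 and 9.74 (log2 change -1.32, SE 0.32, limma's adjusted p = 0.0421), so its transgenic mice were spread over more than a log2 unit. Gstt2 went from 7.96, 7.94 and 8.09 to 7.38, 7.66 and 7.59 (log2 change -0.45, SE 0.10, limma's adjusted p = 0.0299). The calls of Gstt1 and Gstt2 did not hold in every fit with 1 array left out. Their log2 changes in these fits ran from -1.64 to -1.01 and from -0.51 to -0.37. Gstt1 lost its call without any 1 control array or without transgenic mouse 1 or 2 (limma's adjusted p between 0.0511 and 0.160). Gstt2 lost it without any 1 control array or without transgenic mouse 1 or 3 (limma's adjusted p between 0.0531 and 0.117). The theta genes also neighbour each other, and the adjacent gene Ddt, which encodes D-dopachrome tautomerase, fell too (log2 change -0.66, SE 0.09, limma's adjusted p = 0.00814). Cabin1, Mif and Derl3, the next genes outward, were not called.

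Among cytosolic genes that did not pass the test, Gsto1, an omega enzyme that reduces rather than conjugates, read 11.95, 12.06 and 11.93 in controls and 12.41, 11.99 and 12.28 in transgenic mice (log2 change 0.24, SE 0.12, limma's adjusted p = 0.230). Without transgenic mouse 2 it was called higher (log2 change 0.36, limma's adjusted p = 0.0223). Gstk1, the kappa enzyme of mitochondria and peroxisomes, read 11.78, 11.37 and 11.68 against 11.31, 10.83 and 11.86 (log2 change -0.28, SE 0.26, limma's adjusted p = 0.524). Gsta4, an alpha enzyme that acts on the lipid peroxidation product hydroxynonenal, read 11.29, 10.53 and 10.82 against 10.65, 10.26 and 9.98 (log2 change -0.58, SE 0.24, limma's adjusted p = 0.173). Values of the groups overlapped in all 3 genes. Besides Gstm2, the remaining Gst genes Gsta3, Gstp3, Gsto2 and Gstt4 had log2 changes between -1.08 and 0.10 and did not pass.

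The microsomal enzymes are integral membrane proteins unrelated in sequence to the cytosolic ones. Mgst1 read 11.14, 10.91 and 11.10 in controls and 8.91, 10.22 and 9.42 in transgenic mice, a fall to 34.5% (log2 change -1.54, SE 0.32, limma's adjusted p = 0.0258). Mgst2, which can also make leukotriene C4, read 10.02, 9.68 and 9.88 against 8.57, 8.03 and 8.13 (log2 change -1.62, SE 0.16, limma's adjusted p = 0.00262). Both fell without overlap, but Mgst1 lost its call without any 1 control array or without transgenic mouse 3 (limma's adjusted p between 0.0922 and 0.112). Mgst3 read 11.23, 11.08 and 11.21 against 11.43, 10.98 and 11.22, with overlapping groups (log2 change 0.04, SE 0.12, limma's adjusted p = 0.870).

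Of the glucuronosyltransferases, 5 of the 8 measured genes of the Ugt2 family fell, 4 of them at least 4-fold. Ugt2a3 read 11.25, 10.74 and 11.01 in controls and 8.15, 8.57 and 9.66 in transgenic mice (log2 change -2.21, SE 0.38, limma's adjusted p = 0.0151). Ugt2b36 read 9.13, 7.83 and 8.42 against 5.07, 6.44 and 6.19 (log2 change -2.56, SE 0.46, limma's adjusted p = 0.0164), the largest fall in the family. Ugt2b35 read 9.34, 8.88 and 8.96 against 6.23, 7.74 and 7.16 (log2 change -2.01, SE 0.37, limma's adjusted p = 0.0188). In these 3 genes transgenic mouse 1 was lowest, and no group values overlapped.

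Ugt2b5 read 6.72, 5.60 and 6.15 in controls and 4.02, 4.03 and 3.82 in transgenic mice (log2 change -2.20, SE 0.27, limma's adjusted p = 0.00494). Ugt2b37 read 5.12, 4.84 and 5.01 against 4.62, 4.63 and 4.52 (log2 change -0.40, SE 0.09, limma's adjusted p = 0.0361). Its control mean of 4.99 was itself close to the 4.97 of the array controls on control arrays. The transgenic means of Ugt2b5 and Ugt2b37 lay below the 5.17 of the array controls. Under this rough floor signal may not be told from background. Of the 5 genes, Ugt2b5 kept its call when any 1 array was left out. Ugt2a3 lost it without any 1 control array (limma's adjusted p between 0.0588 and 0.0777). Ugt2b35 lost it without any 1 control array or transgenic mouse 3 (limma's adjusted p between 0.0680 and 0.0903). Ugt2b36 lost it without control mouse 1 or 3 or transgenic mouse 3 (limma's adjusted p between 0.0543 and 0.0778). Ugt2b37 lost it without control mouse 1 or 3 or transgenic mouse 1 or 3 (limma's adjusted p between 0.0798 and 0.130).

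Ugt2b34 had values of 13.05, 12.94 and 12.91 in controls and 12.33, 12.51 and 12.77 in transgenic mice, which did not overlap and did not pass the test (log2 change -0.43, SE 0.12, limma's adjusted p = 0.0728). Without transgenic mouse 3, its highest, it was called lower (log2 change -0.55, limma's adjusted p = 0.0305). Ugt2b38 read 6.49, 5.66 and 6.36 against 5.58, 4.85 and 5.39 (log2 change -0.90, SE 0.28, limma's adjusted p = 0.0871). Ugt8a, which makes the galactolipids of myelin, read 4.77, 4.92 and 5.16 against 5.17, 4.72 and 5.31, near the array controls in both groups (log2 change 0.12, SE 0.18, limma's adjusted p = 0.686). The 3 other genes, Ugt2b1, Ugt3a1 and Ugt3a2, lay below the array controls in both groups, with log2 changes between -0.06 and 0.06.

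Most sulfotransferases were not called. Sult6b2 read 10.79, 10.91 and 10.91 in controls and 9.50, 8.31 and 9.59 in transgenic mice (log2 change -1.74, SE 0.34, limma's adjusted p = 0.0218). Sult1d1, whose enzyme acts on catecholamines, read 11.81, 11.55 and 11.70 against 10.78, 9.45 and 10.68 (log2 change -1.38, SE 0.35, limma's adjusted p = 0.0499). In both genes the 3 transgenic values lay below all controls and mouse 2 was lowest by about a log2 unit. Sult6b2 lost its call without any 1 control array (limma's adjusted p between 0.0890 and 0.0973). Sult1d1 lost it without any 1 control array or without transgenic mouse 1 or 3 (limma's adjusted p between 0.0558 and 0.175).

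Sult1b1, which sulfates thyroid hormones and simple phenols, read 11.28, 11.27 and 11.28 in controls and 11.82, 11.28 and 11.63 in transgenic mice (log2 change 0.29, SE 0.14, limma's adjusted p = 0.216). Sult2b1, which sulfates cholesterol and pregnenolone, read 11.03, 11.06 and 10.98 against 11.54, 11.18 and 11.54 (log2 change 0.39, SE 0.12, limma's adjusted p = 0.0749). In both, mouse 2 was the lowest transgenic mouse. Without transgenic mouse 2 both were called higher, at log2 changes of 0.44 for Sult1b1 (limma's adjusted p = 0.0108) and 0.52 for Sult2b1 (limma's adjusted p = 0.00357). Sult1c2 read 6.88, 6.20 and 6.25 against 5.94, 5.72 and 5.90, with no overlap (log2 change -0.59, SE 0.19, limma's adjusted p = 0.102). The 11 other Sult genes had log2 changes between -0.07 and 0.08, and 8 of them lay below the array controls in both groups.

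Sult1b1, Sult1d1 and Sult1e1 stand next to the Ugt2 genes on the same chromosome. The order there is Ugt2b34, Ugt2b1, Ugt2b35, Ugt2b36, Ugt2b5, Ugt2b37, Ugt2a3, Ugt2b38, then Ugt2a1 and Ugt2a2, which no probe set measured alone, and the 3 Sult1 genes. Genes that fell at least 4-fold thus lay between Ugt2b34, which changed by -0.43, and Sult1b1, which changed by 0.29. The genes flanking the cluster, Tmprss11e, Ythdc1, Csn1s1 and Csn2, were not called. Flanking genes of other clusters were. Ndufv1, beside Gstp1, was lower (log2 change -0.61, SE 0.14, limma's adjusted p = 0.0409). Cilk1, beside Gsta4, was higher (log2 change 0.66, SE 0.15, limma's adjusted p = 0.0349). Both calls were lost without any 1 control array, that of Cilk1 also without transgenic mouse 1 or 3 (limma's adjusted p up to 0.149 and 0.119).

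Some conjugating enzymes are so alike that a probe set names several of them. A limma fit over all 23410 named probe sets, chosen after the data had been seen, gave 12 such sets, of which 7 were lower, 0 higher and 5 not called, against 5.79% of all named probe sets called lower. The set for the 8 Ugt1a genes, which share their last exons and include the enzyme that conjugates bilirubin, read 9.55, 9.44 and 9.43 in controls and 7.51, 7.57 and 8.69 in transgenic mice. The log2 change was -1.55 (SE 0.32, limma's adjusted p = 0.0286), with no overlap, and transgenic mouse 3 stood nearest the controls. The 2 sets for Gstp1 and Gstp2 changed by -1.46 and -1.47 (limma's adjusted p = 0.00285 and 0.00217).

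The 4 sets for the alpha genes Gsta1, Gsta2, Gm3776 and Gm10639 changed by -1.17 to -0.998 (limma's adjusted p between 0.0328 and 0.0397). These 4 sets overlap in the transcripts they read and are not independent. Sets shared among Sult2a genes, between Ugt2a1 and Ugt2a2 and between Ugt3a1 and Ugt3a2 were not called. Only the Gstp1 and Gstp2 sets kept their call whichever array was left out. The Ugt1a set lost it without any 1 control array or transgenic mouse 1 (limma's adjusted p up to 0.122). The Gsta sets lost it without any 1 control array or transgenic mouse 3 (limma's adjusted p up to 0.155).

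The transgenic mice were not equally low. Of the 20 genes that fell, 14 were lowest in transgenic mouse 1 and 4 in mouse 2 (Gstm6, Mgst2, Sult1d1 and Sult6b2). The other 2, Ugt2b5 and Ugt2b37, were lowest in mouse 3. Their transgenic values lay below the array controls, a rough floor, so their order among these mice may have no meaning. Of all genes called lower, 66.5% were lowest in mouse 1, 19.01% in mouse 2 and 14.5% in mouse 3. The median of the 20 genes, relative to the control mean, was -1.80, -1.63 and -1.49 in transgenic mice 1, 2 and 3. For the 2 Sult genes it was -1.14, -2.40 and -1.15. Among controls, mouse 1 was highest for 16 of the 20 genes, and for 52.3% of all genes called lower.

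How many genes were called changed with the array left out, and each such fit also had fewer arrays. With control mouse 1, 2 or 3 left out, 10, 12 and 10 of the 49 genes were lower, where 1.85%, 2.11% and 2.32% of all genes were. With transgenic mouse 1, 2 or 3 left out, the numbers were 15, 20 and 14, where 4.46%, 19.5% and 4.07% of all genes were. The 10 genes Gstm1, Gstm3, Gstm4, Gstm6, Gstm7, Gstp1, Gstt3, Gstz1, Mgst2 and Ugt2b5 stayed called lower in every setting in which they were tested.

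**Figure D4:**
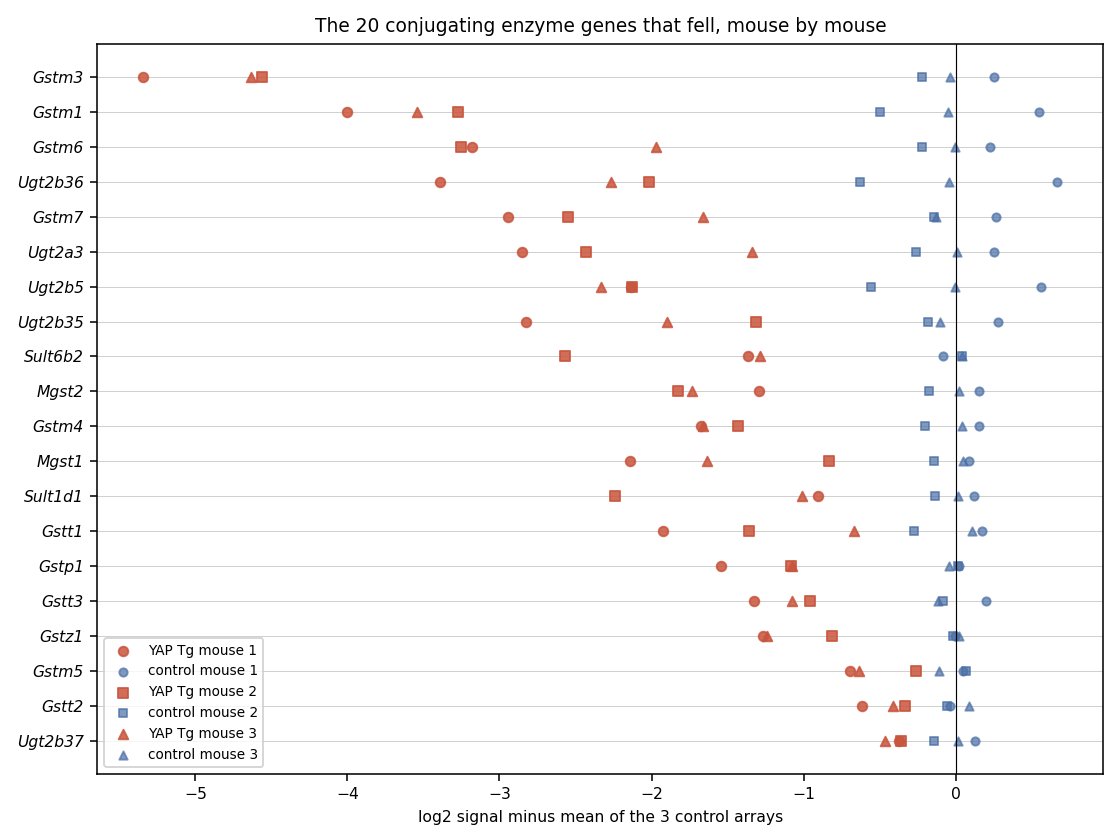
The log2 signal of each of the 20 genes that fell, minus the mean of the 3 control arrays (x axis), with 1 symbol shape per mouse number, controls in blue and YAP Tg mice in red. Transgenic mouse 1 (red circles) is lowest for 14 genes, and transgenic mouse 2 (red squares) for both Sult genes.

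The levels of these RNAs depend on how many cells of a type a crypt preparation holds and on the RNA in each, which cannot be told apart in bulk samples. Markers of other cell types moved between the groups as well, and their part in the results was not tested. The marker counts stand beside 6.70% of all genes called lower and 7.50% called higher. Of 12 Lgr5 stem cell markers 10 fell, and their summed linear signal was 13420 to 14170 in controls and 2148 to 4222 in transgenic mice. Of 11 measured T cell markers 10 rose, with sums of 9834 to 11740 against 25230 to 30940. Enterocytes, the absorptive cells in which many conjugating enzymes are made, showed a mixed picture: of 19 markers 4 fell and 2 rose, with a median of -0.10 and sums of 122000 to 124400 against 93050 to 117800. Of 12 general epithelial markers 6 rose and 0 fell. Of 8 goblet markers 4 fell, with sums of 33930 to 34470 against 22220 to 30620, and of 7 Paneth markers 3 fell. Macrophage markers moved both ways (2 of 7 up, 1 down), 1 of 10 stromal markers rose, and 0 of 5 tuft and 0 of 4 endothelial markers were called. Leaving out any 1 array gave 4 to 10 stem cell markers lower, 8 to 10 T cell markers higher, and 1 to 7 enterocyte markers lower with 0 to 3 higher. It gave 3 to 8 epithelial markers higher, 2 to 5 goblet, 1 to 4 Paneth and 0 to 2 liver markers lower, 0 to 1 stromal and 0 to 2 tuft markers higher, and 1 to 2 macrophage markers higher with 0 to 2 lower. Many of these enzymes are best known from liver, and of 5 liver markers 2 fell, Ttr and Serpina1c. Alb, the defining one, read 5.22 in controls and 5.24 in transgenic mice, close to the array controls.

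Genes around the supply of the donors of conjugation were counted by donor, and differences between donors were not tested. Of all genes, 6.70% were called lower and 7.50% higher, shares to set beside the counts of each list below. For UDP-glucuronate 2 of 6 genes rose and 0 fell. The list's summed linear signal was 8369 to 8994 in controls and 7285 to 10070 in transgenic mice, which overlapped. Ugp2, which makes UDP-glucose, rose (log2 change 0.74, SE 0.09, limma's adjusted p = 0.00462), as did Slc35d1, which carries UDP-glucuronate into the endoplasmic reticulum (log2 change 0.89, SE 0.20, limma's adjusted p = 0.0336). Ugdh, which oxidises UDP-glucose to UDP-glucuronate, had a change of -0.44 and did not pass (limma's adjusted p = 0.0951), and Pgm2 changed by 0.03. Without any 1 control array or transgenic mouse 3 the call of Slc35d1 was lost (limma's adjusted p up to 0.128).

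For glutathione 2 of 11 measured genes rose and 0 fell, with overlapping sums of 14400 to 16220 in controls and 14290 to 17890 in transgenic mice. Gss, the second enzyme of glutathione synthesis, read 9.96, 10.12 and 10.17 in controls and 10.61, 10.72 and 10.67 in transgenic mice (log2 change 0.58, SE 0.08, limma's adjusted p = 0.00799). Chac1, which degrades glutathione, rose (log2 change 0.69, SE 0.13, limma's adjusted p = 0.0197), a call lost without control mouse 2 or 3 or transgenic mouse 3 (limma's adjusted p up to 0.0808). Slc3a1 and Gsr, which were not called, changed by 0.16 and -0.38. Gclc, named after its values were seen, encodes the catalytic subunit of the first and limiting enzyme. It read 10.50, 10.54 and 10.44 in controls and 9.68, 10.11 and 9.24 in transgenic mice, with no overlap, and did not pass (log2 change -0.81, SE 0.21, limma's adjusted p = 0.0537).

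For PAPS 3 of 9 measured genes fell and 1 rose. Here the sums did not overlap, at 22930 to 23420 in controls and 10910 to 17590 in transgenic mice. Papss1, a PAPS synthase, read 8.83, 8.66 and 8.75 in controls and 7.63, 7.69 and 7.94 in transgenic mice (log2 change -0.996, SE 0.10, limma's adjusted p = 0.00288). Papss2, the other synthase, had a change of -0.62 and did not pass (limma's adjusted p = 0.0531), and the sulfate transporter Slc26a2 changed by 0.04. Bpnt1, which clears the spent donor, fell by 0.71, the sulfate transporter Slc13a1 fell by 2.06, and Slc35b3, which moves PAPS into the Golgi, rose by 0.54. These last 3 calls (limma's adjusted p = 0.0362, 0.0414 and 0.0199) were lost without any 1 control array, those of Bpnt1 and Slc13a1 also without transgenic mouse 1, and that of Slc35b3 also without mouse 3. The adjusted p then reached 0.135, 0.146 and 0.0918.

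Export transporters moved both ways, 3 of 9 measured genes up and 1 down. Abcc5 read 6.31, 6.37 and 6.16 in controls and 8.91, 8.20 and 8.25 in transgenic mice (log2 change 2.17, SE 0.20, limma's adjusted p = 0.00194). Abcc3, a basolateral exporter of glucuronides, rose (log2 change 1.05, SE 0.10, limma's adjusted p = 0.00206), as did the apical Abcg2 (log2 change 1.13, SE 0.14, limma's adjusted p = 0.00508). Abcb1a, P-glycoprotein, fell (log2 change -1.28, SE 0.17, limma's adjusted p = 0.00589). Abcc2, the apical exporter of glucuronide and glutathione conjugates, read 11.18, 11.10 and 10.82 against 9.41, 8.41 and 10.24 and did not pass (log2 change -1.68, SE 0.44, limma's adjusted p = 0.0532). Abcc1 changed by 0.20 and was not called.

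Of 18 other conjugation genes 3 fell and 0 rose, with a median log2 change of -0.01. They were Tpmt, which methylates thiopurines (log2 change -1.18, SE 0.14, limma's adjusted p = 0.00482), Acsm3, an acyl-CoA synthetase of medium-chain acids (-1.01, SE 0.16, limma's adjusted p = 0.0103), and the arsenic methyltransferase As3mt (-1.23, SE 0.28, limma's adjusted p = 0.0374). The calls of Acsm3 (without control mouse 1 or 2) and As3mt (without any 1 control array or transgenic mouse 3) were lost, at adjusted p up to 0.0602 and 0.140. Ephx2 and Alox5ap, not called, changed by -0.60 and 0.00. Of 9 genes that remove or break down conjugates 2 fell. Both deacetylate amino acids: Acy1 (log2 change -2.44, SE 0.28, limma's adjusted p = 0.00405) and Acy3 (-1.39, SE 0.16, limma's adjusted p = 0.00405), the latter known for acting on mercapturic acids, the end products of glutathione conjugation. Cndp2 and Dpep1 changed by -0.66 and -0.22 and were not called.

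**Figure D5:**
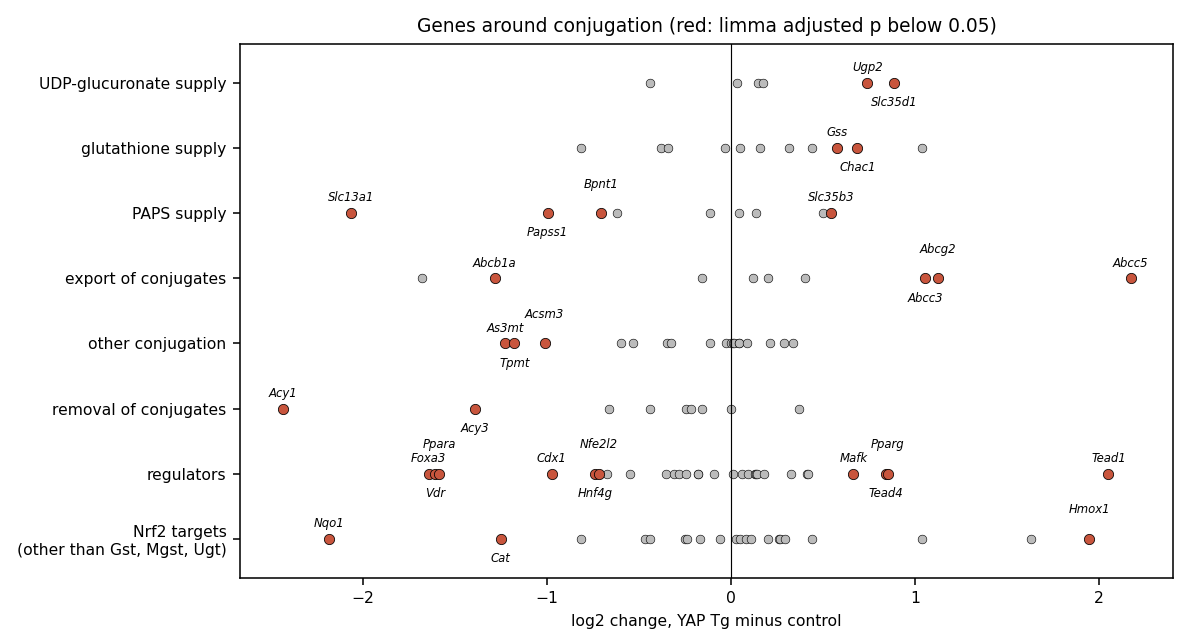
The log2 change (x axis) of each measured gene in 8 lists around conjugation, red and named where limma's adjusted p was below 0.05 and grey otherwise. Called genes of UDP-glucuronate and glutathione supply lie right of 0, those of other conjugation and removal of conjugates lie left of it, and the remaining lists hold both.

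Of 29 measured regulators 4 rose and 6 fell, 13.8% and 20.7% of the list, where 7.50% and 6.70% of all genes were. Those with the smallest adjusted p were the YAP partner Tead1, which rose (log2 change 2.05, SE 0.14, limma's adjusted p = 0.00101), the vitamin D receptor gene Vdr, which fell (log2 change -1.61, SE 0.16, limma's adjusted p = 0.00265), the intestinal factor Cdx1, which fell (log2 change -0.97, SE 0.14, limma's adjusted p = 0.00848), and the fatty acid receptor gene Ppara, which fell (log2 change -1.59, SE 0.24, limma's adjusted p = 0.00966). Cdx1 lost its call without control mouse 3 (limma's adjusted p = 0.0512), and Ppara without control mouse 1 or 2 (up to 0.0548). Hnf4a and Gata6, not called, changed by 0.14 and -0.31. The others called were named after their values were seen. Foxa3 and Hnf4g fell by 1.64 and 0.74 (limma's adjusted p = 0.0124 and 0.0289). Tead4, Pparg and Mafk rose by 0.84, 0.85 and 0.67 (limma's adjusted p = 0.0146, 0.0250 and 0.0299). Each of these calls was lost without any 1 control array (limma's adjusted p up to 0.122). Nfe2l2, also called, encodes Nrf2, a factor that acts through the antioxidant response element on many Gst genes. It changed by -0.72 and lost its call without any 1 control array or transgenic mouse 3 (limma's adjusted p up to 0.0867). Without control mouse 1, 2 or 3 the regulators called numbered 1 higher and 2 lower each time.

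Of 21 measured Nrf2 targets outside the 49 genes, 2 fell and 1 rose, with a median log2 change of 0.05. These were 9.52% and 4.76% of the list, where 6.70% and 7.50% of all genes were called. Nqo1, a quinone reductase, read 9.81, 9.53 and 9.65 in controls and 7.30, 8.07 and 7.06 in transgenic mice (log2 change -2.18, SE 0.26, limma's adjusted p = 0.00423). Cat, catalase, fell (log2 change -1.25, SE 0.25, limma's adjusted p = 0.0225), and Hmox1, heme oxygenase, rose (log2 change 1.95, SE 0.40, limma's adjusted p = 0.0268). Without any 1 control array the calls of Cat and Hmox1 were lost (limma's adjusted p up to 0.103 and 0.115). Gpx2 and Prdx1, which did not pass, changed by 0.03 and -0.25.

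Promoter letters were searched in RefSeq's windows of 27025 mouse promoters, among them those of 45 of the 49 genes and 19 of the 20 that fell, on both strands and without regard to overlap between motifs. The TEAD motif GGAATG stood in 2 of the 19 (Gstm6 and Gstm7), in 9 of the 45 and in 14.6% of all promoters. The antioxidant response element TGACNNNGC stood in 2 of the 19 (Gstm5 and Mgst1), in 3 of the 45 and in 12.5% of all promoters. The short HNF1 motif GTTAAT stood in 2 of the 19 (Sult1d1 and Ugt2a3), in 8 of the 45 and in 7.2% of all promoters. The CDX motif TTTATNG stood in 1 of the 19 (Ugt2a3), in 4 of the 45 and in 11.3% of all promoters. The HNF4 motif CAAAGTCCA stood in 0 of the 45 and in 0.477% of all promoters. A match describes the letters only, and these short windows hold no distant elements.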

How the data were processed

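Total RNA of crypts from 6 mice was measured on Affymetrix arrays, 1 per mouse. The authors deposited log2 signals for 35556 probe sets. The submitters' processing notes name Affymetrix Expression Console 1.1. The sources used here do not give how background was corrected or arrays were normalized. A normalization that assumes most genes constant hides a change common to all. Genes were named from probe sets with 1 symbol in the platform annotation (21789), with 6617 array controls, taken from their numbers, left out. Groups came from sample titles. Tests used limma 3.58.1 in R 4.3.3 (lmFit, eBayes, two-sided, Benjamini-Hochberg over 19938 genes, threshold 0.05). The fit was checked on simulated data in which both groups had the same spread. The genes and lists were chosen with earlier results of these data known. Genes given array by array were, per family, all that passed the test and up to 3 others with the highest mean; of each list, up to 4 that passed and up to 2 others. Alternatives were each array left out, the replicate block, quantile normalization, median centring, a signal filter, a trended robust prior, array weights and averaged probe sets. The number of arrays, 3 per group, limits precision. The p-values weigh each group difference against a spread between mice pooled over both groups. For each gene eBayes draws that pooled spread toward a value estimated from all genes. The spread between mice could differ by group, as for Mgst1 (SD 0.12 in controls, 0.66 in transgenic mice) and Ugt2b5 (SD 0.56 and 0.12).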

Additional observations from a re-analysis of the deposited data

How the results depend on the processing

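Under 13 alternatives, 10 of the 20 calls held wherever they were tested. Quantile normalization gave 19 genes lower and 1 higher (Sult2b1), with Sult at 1 lower and 1 higher, where 6.83% and 8.14% of all genes were. Array weights gave 21 lower and 2 higher, both Sult, where 17.5% and 12.3% of all genes were. Genes above the median signal gave 19 lower, of which Ugt 3, since Ugt2b5 and Ugt2b37 were not tested. Of all genes above that median, 14.3% were lower. Median centring and averaged probe sets gave 20, and the trended robust prior 19, where 7.12%, 6.69% and 6.22% of all genes were lower. Leaving out 1 array gave 10 to 20 lower and 0 to 3 higher in all: Ugt 1 to 5, Mgst 1 to 2 and Sult 0 to 2 lower, Gst 0 to 1 and Sult 0 to 2 higher. The 3 higher came without transgenic mouse 2, where 14.1% of all genes were higher. Signs turned without 1 array for Ugt8a (log2 change -0.0016 to 0.2923, below 0 without transgenic mouse 3) and Mgst3 (-0.0714 to 0.1492, below 0 without control mouse 2 or transgenic mouse 1). Where no construction is named, the cause was not tested. The lists' counts under these alternatives, and the fit over probe sets with several genes, were chosen after seeing the data.

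With the replicate number as a replicate block, 13 genes were lower and 0 higher: Ugt 3, Mgst 1 and Sult 1. Of all genes 3.65% were then lower and 4.89% higher. The labels do not say whether the numbers pair mice, and they were not treated as pairs. Deviations of same-numbered mice from their group means correlated at -0.131, 0.0124 and 0.0983 across genes, and control mouse 1 correlated best with transgenic mouse 2 (0.12). Signals near the array controls limit what can be said of 12 genes.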
